A study of Homo sapiens with 8 samples.

Results

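The genes described here are 10 markers of the ovarian and Müllerian lineage, PAX8, WT1, MECOM, EMX2, MSLN, MUC16, FOLR1, CD24, WFDC2 and SPON1. The choice was made by name from what is known of serous ovarian carcinoma, with earlier results of these data known. All 10 were measured by a probeset that the annotation pairs with 1 gene, out of 15931 genes measured in all. They were compared between cisplatin-resistant OVCAR-8R spheroids and parental, cisplatin-sensitive OVCAR-8 spheroids, with 4 Affymetrix Human Gene 1.0 ST arrays of each line. OVCAR-8 is an established human ovarian adenocarcinoma line, and OVCAR-8R (named OVCAR-8C in the sample labels) was obtained by growing it in rising concentrations of cisplatin, a DNA-crosslinking platinum compound, with 5 μM as the highest. The labels describe the resistance as stable once the drug was withdrawn, and the parental cells as never taken through this selection. Both lines were kept in DMEM with serum and grown as spheroids of about 300 μm in agarose molds, with RNA taken from whole spheroids. Each line is a single culture lineage, so selection by cisplatin and any other divergence between the lines cannot be told apart. According to their titles the arrays are biological replicates, but no label says where the replicates parted, so p-values speak only for the spread among these arrays, some of which may be technical.

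The Müllerian ducts of the embryo give rise to the fallopian tubes, uterus and upper vagina, and high-grade serous carcinoma, although named for the ovary, keeps many features of the secretory cells of the tube. PAX8, WT1, MECOM and EMX2 are transcription factors of the urogenital tract, and PAX8 and WT1 are stained by pathologists to recognise serous carcinoma. MSLN (mesothelin), MUC16 (which carries the CA125 epitope), FOLR1 (folate receptor alpha) and CD24 are surface proteins, of which MSLN and FOLR1 are targets of antibody-based drugs. WFDC2 (HE4) and SPON1 (F-spondin) are secreted, and HE4 is measured in blood together with CA125.

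In OVCAR-8R spheroids, PAX8, MSLN, CD24 and FOLR1 were higher, MECOM and SPON1 were lower, and WT1, EMX2, WFDC2 and MUC16 did not pass the test. A call needed a Benjamini-Hochberg adjusted p under 0.05 together with a log2 difference of 1 or more in size, that is 2-fold, and every difference is given as OVCAR-8R minus OVCAR-8, in means of log2 signal. Thus 4 of the 10 genes were higher, against 8.37% of all genes measured, and 2 of the 10 were lower, against likewise 8.37% of all genes. In either direction 6 of the 10 were called, against 16.7% of all genes, and since the genes were picked with earlier results of these data known, this count is a description and no test of the group. The median of the 10 differences was 0.28 on the log2 scale and that of all genes -0.01, while the median size of a difference without its sign was 1.80 for the 10 genes and 0.34 for all genes. For 9 of the 10 genes the arrays of the lines did not overlap, as was the case for 56.8% of all genes, and 9 of the 10 had an adjusted p under 0.05 at any size of difference, as did 57.6% of all genes.

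**Figure D1:**
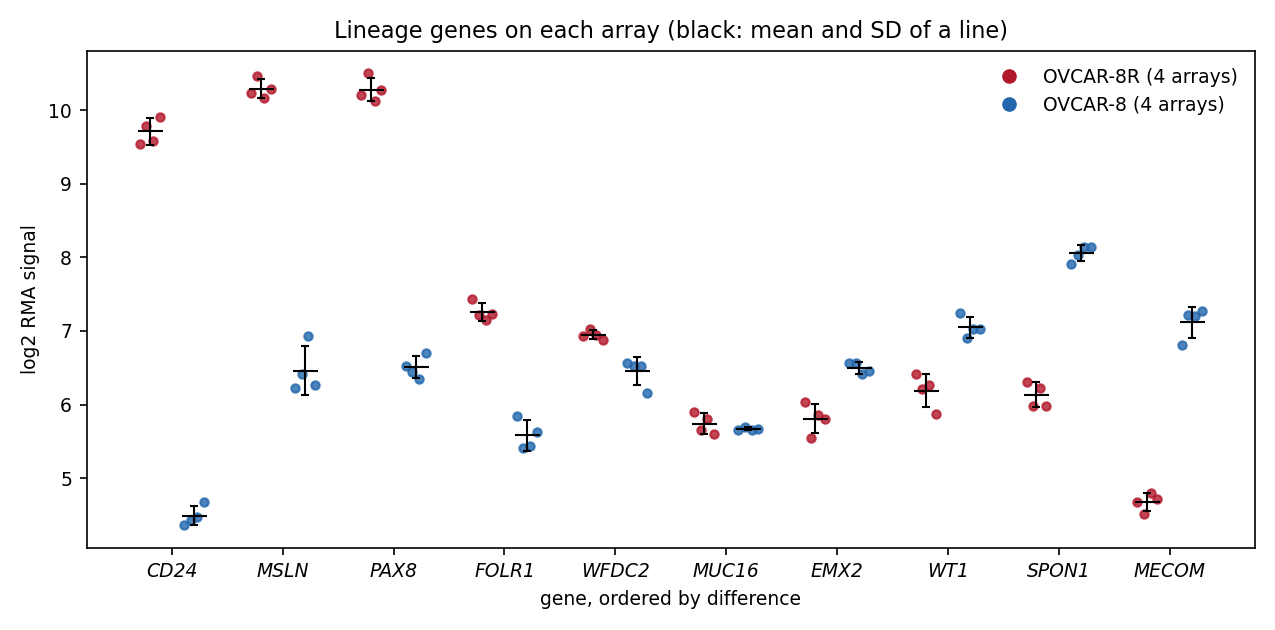
Log2 RMA signal (vertical axis) of each lineage gene on the 4 OVCAR-8R arrays (red, left) and the 4 OVCAR-8 arrays (blue, right), where black bars give mean and SD and genes run by their difference. CD24, MSLN and PAX8 lie at 9.54 or higher on every OVCAR-8R array and at 6.93 or lower on every OVCAR-8 array, MUC16 is the gene whose lines overlap, and SPON1 and MECOM are lower on every OVCAR-8R array.

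The promoters of PAX8 and CD24, which rose, and of MECOM, which fell, are shown for the sequence at their most upstream annotated start. CD24 and MECOM have 3 such starts each in the table, and which of them gave the measured transcripts was not examined. Nor was it examined whether the CD24 probeset reads this gene or a pseudogene on another chromosome. Each runs from 250 bases before to 50 bases after that start, on the gene's strand, with CpG dinucleotides, the sites of DNA methylation, in capitals. The intervals are chr2:113278872-113279171, minus strand, for PAX8, chr6:106975578-106975877, minus strand, for CD24 and chr3:169663663-169663962, minus strand, for MECOM, all in GRCh38.p14.
PAX8: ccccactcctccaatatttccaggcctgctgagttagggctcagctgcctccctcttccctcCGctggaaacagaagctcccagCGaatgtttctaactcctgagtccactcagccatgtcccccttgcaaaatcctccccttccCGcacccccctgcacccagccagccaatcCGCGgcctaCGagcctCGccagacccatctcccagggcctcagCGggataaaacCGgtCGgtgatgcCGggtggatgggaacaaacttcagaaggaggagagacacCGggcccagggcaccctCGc
CD24: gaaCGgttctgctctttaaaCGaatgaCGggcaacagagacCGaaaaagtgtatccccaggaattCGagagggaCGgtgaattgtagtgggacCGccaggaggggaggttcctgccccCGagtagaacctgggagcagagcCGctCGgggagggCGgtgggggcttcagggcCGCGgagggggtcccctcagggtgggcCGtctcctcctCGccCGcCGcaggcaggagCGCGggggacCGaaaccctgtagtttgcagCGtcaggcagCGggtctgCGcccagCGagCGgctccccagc
MECOM: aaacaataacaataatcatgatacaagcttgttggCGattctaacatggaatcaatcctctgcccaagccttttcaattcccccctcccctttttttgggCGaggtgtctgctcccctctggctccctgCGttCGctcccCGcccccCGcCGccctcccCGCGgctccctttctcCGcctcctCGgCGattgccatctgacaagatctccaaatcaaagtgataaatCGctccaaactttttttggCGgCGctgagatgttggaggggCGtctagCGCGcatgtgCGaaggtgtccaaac
The PAX8 interval held 13 CpG dinucleotides, with a ratio of observed to expected CpG of 0.48, below the median of 0.58 over 35116 promoters of the same length. The CD24 interval held 25, with a ratio of 0.77, and the MECOM interval 19, with a ratio of 0.90. In all, 7 of the 10 genes had 15 such promoters in the table. The core letters bound by PAX proteins, GTCACGC, occurred on neither strand of the 15, against 2.52% of all promoters, and the EVI1 letters GACAAGATA, the site of the MECOM product, occurred in none, against 0.10% of all promoters. A site of WT1 and the EGR factors, GCGNGGGCG, was found in 1 of the 15, that of WT1 itself, where it reads GCGAGGGCG and begins 143 bases before the most upstream start (9.43% of all promoters). The homeodomain letters TAATTA, the same on both strands, were found in the promoter of EMX2, 30 bases before its start, and in 1 of the promoters of WT1 (4.84% of all promoters), and TATAAA in none of the 15 (11.53% of all promoters). Such matches say only that the letters stand in these windows, and methylation and binding were not measured.

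PAX8, a paired-box factor needed to form the Müllerian duct, kidney and thyroid, had log2 signals of 10.20, 10.50, 10.12 and 10.27 on the OVCAR-8R arrays, against 6.53, 6.44, 6.35 and 6.70 on the OVCAR-8 arrays. The lowest OVCAR-8R array stood 3.42 above the highest OVCAR-8 array, a distance many times the range of 0.38 among OVCAR-8R and 0.35 among OVCAR-8 arrays. The difference was 3.77 (standard error 0.11, adjusted p = 3.40e-09 from limma), 13.6-fold, and 95 of the 15931 genes rose by more. PAX8-AS1, a long non-coding RNA gene that lies inside PAX8 on the other strand, rose with it, with signals from 7.29 to 7.56 on OVCAR-8R arrays and from 4.49 to 4.87 on OVCAR-8 arrays. Its difference was 2.79 (0.10, adjusted p = 1.65e-08), and its OVCAR-8 mean of 4.67 lies in the lowest quartile of signal, so the size is best read as a lower bound. Whether the labelling kept the strands of these overlapping genes fully apart was not tested.

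MECOM, which encodes the zinc finger factor EVI1 and its longer MDS1-EVI1 form, went the other way from PAX8. Its probeset with the higher mean over all arrays had log2 signals of 4.68, 4.51, 4.80 and 4.72 on the OVCAR-8R arrays, against 6.81, 7.21, 7.20 and 7.27 on the OVCAR-8 arrays. All OVCAR-8R arrays were thus lower, and they lay in the lowest quartile of signal, under 5.11 for that line, so that the size of the fall is a lower bound. MECOM fell by 2.45 (standard error 0.11, adjusted p = 9.21e-08 from limma), 5.46-fold, and 91 genes fell by more. The other MECOM probeset gave only -0.41 (0.10, adjusted p = 0.00652), with signals of 5.49, 5.14, 5.41 and 5.19 on OVCAR-8R arrays and 5.72, 5.79, 5.55 and 5.81 on OVCAR-8 arrays. The probeset that stands for MECOM was brighter than this one only on OVCAR-8 arrays (mean 7.12 against 5.72). On OVCAR-8R arrays it was dimmer (4.68 against 5.31), so its choice and its passing the filter rested on the OVCAR-8 signal. The probesets thus disagreed in size though not in direction, and their mean fell by 1.43, which still passed the test. Which start or isoform each probeset reads was not examined.

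WT1, a zinc finger factor of the developing gonad, kidney and mesothelium, had log2 signals of 6.41, 6.21, 6.27 and 5.87 on the OVCAR-8R arrays, against 7.24, 6.91, 7.03 and 7.02 on the OVCAR-8 arrays. The lines did not overlap, with a gap of 0.50, but the difference of -0.86 (standard error 0.12, adjusted p = 2.02e-04 from limma) stayed under 2-fold. Its antisense partner WT1-AS had a difference of -0.52 (0.14, adjusted p = 0.0121), also under 2-fold. EMX2, a homeobox factor required for the urogenital tract, had signals of 6.04, 5.55, 5.86 and 5.80 on OVCAR-8R arrays and 6.57, 6.57, 6.41 and 6.46 on OVCAR-8 arrays. Every OVCAR-8R array was lower, by a gap of 0.37, with a difference of -0.69 (0.10, adjusted p = 3.12e-04). Of the 4 transcription factors, then, 1 was higher, 1 was lower, and the remaining pair lay below their OVCAR-8 level by less than 2-fold.

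MSLN, a GPI-anchored surface protein that binds MUC16, had log2 signals of 10.23, 10.47, 10.16 and 10.29 on the OVCAR-8R arrays, against 6.22, 6.41, 6.93 and 6.26 on the OVCAR-8 arrays. The third OVCAR-8 array was the highest of its line, which gave MSLN the widest spread among the 10 genes (SD 0.33 in OVCAR-8, 0.13 in OVCAR-8R, n = 4 each), and it still lay 3.22 below the lowest OVCAR-8R array. The difference was 3.83 (standard error 0.15, adjusted p = 3.35e-08 from limma), 14.2-fold, a rise exceeded by 89 genes. MUC16, the binding partner of mesothelin, was not called. Its signals were 5.90, 5.66, 5.80 and 5.60 on OVCAR-8R arrays and 5.65, 5.70, 5.66 and 5.67 on OVCAR-8 arrays, which overlap, since OVCAR-8R arrays 1 and 3 lay above all OVCAR-8 arrays and array 4 below them. The difference was 0.07 (0.08, adjusted p = 0.529), and the interval of 2 standard errors on each side ran between -0.09 and 0.23, which leaves out a change of 2-fold in this probeset, dim in both lines.

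FOLR1, which takes up folate by endocytosis and is also held in the membrane by a GPI anchor, had log2 signals of 7.44, 7.22, 7.15 and 7.23 on the OVCAR-8R arrays, against 5.85, 5.41, 5.43 and 5.63 on the OVCAR-8 arrays. The gap between the lines was 1.30. FOLR1 rose by 1.68 (standard error 0.11, adjusted p = 1.12e-06 from limma), 3.20-fold, with 560 genes rising more. The FOLR1 mean of 5.58 in OVCAR-8 lies below the 5.67 of the dim MUC16 probeset, and its distance from background was not tested. CD24, a small and heavily glycosylated GPI-anchored protein that is a ligand of SIGLEC10 and is common on epithelial tumours, had signals of 9.54, 9.79, 9.58 and 9.91 on OVCAR-8R arrays and 4.37, 4.43, 4.47 and 4.68 on OVCAR-8 arrays. This was the widest gap among the 10 genes, 4.86 between the nearest arrays. The difference was 5.22 (0.11, adjusted p = 4.90e-10), 37.2-fold, and 27 genes rose by more. The OVCAR-8 mean of 4.49 lies in the lowest quartile, under 5.16 for that line, so the fold is a lower bound for this probeset. RefSeq also lists CD24 pseudogenes on other chromosomes, and whether their transcripts share signal with this probeset was not tested.

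WFDC2, a secreted protein with WAP domains, had log2 signals of 6.93, 7.03, 6.94 and 6.88 on the OVCAR-8R arrays, against 6.57, 6.52, 6.53 and 6.16 on the OVCAR-8 arrays. All OVCAR-8R arrays were higher, but the difference of 0.50 (standard error 0.10, adjusted p = 0.00186 from limma) was under 2-fold, and 0.41 without OVCAR-8 array 4. SPON1, a matrix protein with thrombospondin repeats first known for guiding neurites, had signals of 6.31, 5.98, 6.23 and 5.98 on OVCAR-8R arrays and 7.91, 8.03, 8.14 and 8.14 on OVCAR-8 arrays. The lines were separated by 1.60. SPON1 fell by 1.93 (0.10, adjusted p = 2.05e-07), 3.81-fold, and 208 genes fell by more.

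**Figure D2:**
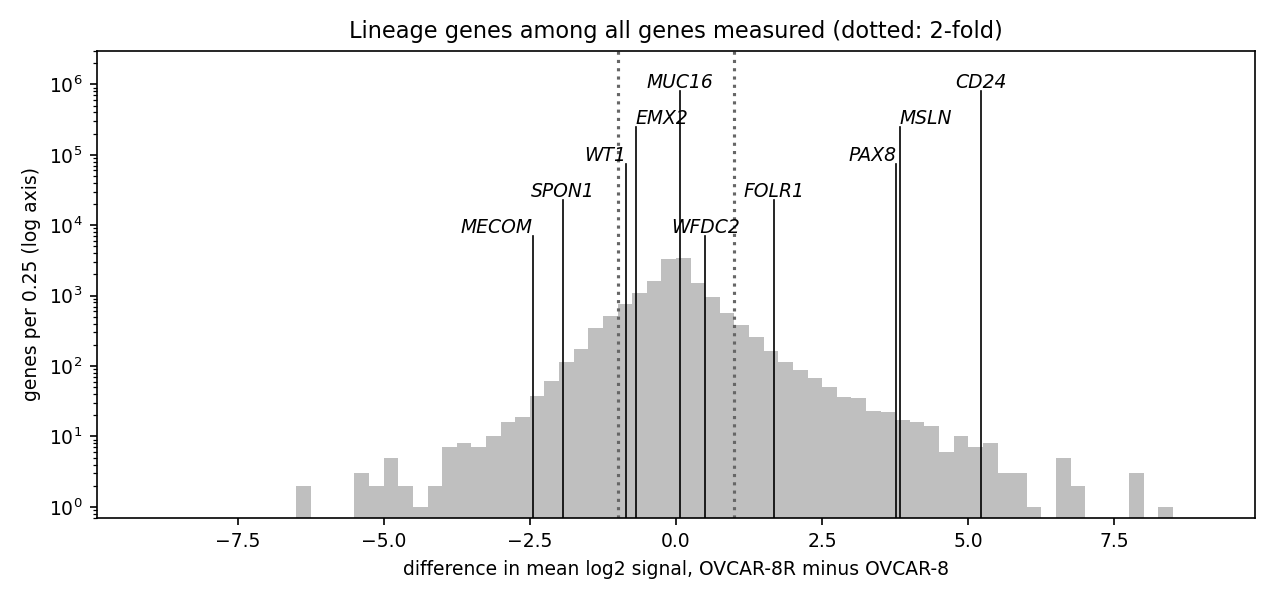
Number of genes (vertical log axis, bins of 0.25) by the difference in mean log2 signal of OVCAR-8R minus OVCAR-8 (horizontal axis) over the 15931 genes measured, with a black line at each lineage gene, whose height carries no value. CD24, MSLN and PAX8 lie far in the upper tail, MECOM and SPON1 in the lower one, and WT1, EMX2, MUC16 and WFDC2 between the dotted lines of 2-fold.

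Over the probesets kept by the filter on low signal, OVCAR-8R arrays 1 and 3 deviated from the mean of their line together (r = 0.427), and so did arrays 2 and 4 (r = 0.484). Several lineage genes carried this pattern at a small scale: CD24 was higher on OVCAR-8R arrays 2 and 4 than on 1 and 3, while SPON1 and MUC16 were lower on them. Averaging the arrays within these pairs, a setting chosen after the data were seen, left 4 genes higher and 2 lower. The SD of a lineage gene ranged from 0.06 to 0.23 in OVCAR-8R and from 0.02 to 0.33 in OVCAR-8 (n = 4 each), and the median log2 signal of an array lay between 6.67 and 6.73.

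The cells were checked for the markers of their labelled type. Of 16 measured epithelial genes, 5 were higher in OVCAR-8R, against 8.37% of all genes, and 11 did not pass, with a median difference of 0.13. The mean log2 signal over the 18 with a probeset of their own lay between 7.13 and 7.32 on OVCAR-8R arrays and between 6.48 and 6.64 on OVCAR-8 arrays. The keratin genes KRT7 and KRT8 rose by 4.45 (standard error 0.18) and 2.97 (0.09), and the adhesion gene EPCAM by 2.01 (0.11, adjusted p = 2.57e-07 from limma). CDH1, which encodes E-cadherin, averaged 6.02 ± 0.10 on OVCAR-8R arrays and 6.25 ± 0.11 on OVCAR-8 arrays (SD, n = 4 each), and the epithelial factor gene GRHL2 and the trafficking gene RAB25 lay in the lowest quartile in both lines. The keratin gene KRT18 and SPINT2, a protease inhibitor gene, were the other called genes, at 1.90 and 1.04, the SPINT2 call ending with treat, a test for more than a 2-fold difference, and without OVCAR-8 array 3 (1.0) or 4 (0.98). The keratin gene KRT19 had a difference of 0.08 (adjusted p = 0.744) with overlapping lines, and the splicing regulator gene ESRP2 one of -0.48 (adjusted p = 0.0145). KRT7, KRT8, KRT18 and EPCAM thus moved in the direction of PAX8, MSLN and CD24, while KRT19, CDH1 and ESRP2 were not called. CDH1 (-0.23, adjusted p = 0.0465 from limma) and ESRP2 were lower in OVCAR-8R without overlap of the lines. The part of the epithelial genes in the PAX8, MSLN and CD24 results was not tested. In such bulk RNA, more cells of a type and more RNA per cell cannot be told apart.

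MSLN and WT1 also mark mesothelium, the lining of the peritoneum. Here MSLN rose, while WT1 had a difference of -0.86 and was not called. Of 6 measured further mesothelial genes, 3 rose in OVCAR-8R, against 8.37% of all genes, and 3 did not pass. In the lowest quartile in both lines were 2 more, ITLN1 and PRG4. BNC1, which encodes the zinc finger protein basonuclin, rose by 3.79 (standard error 0.15, adjusted p = 3.73e-08 from limma). The surface protein gene LRRN4 rose by 1.54 (0.09) and CALB2, which encodes calretinin, by 1.52 (0.09). The mean log2 signal over the 8 genes with a probeset of their own lay between 6.82 and 6.86 on OVCAR-8R arrays and between 5.95 and 6.02 on OVCAR-8 arrays. The podoplanin gene PDPN, a further mesothelial marker, had a difference of -0.35 (0.08), and DES and KRT5 had differences of 0.49 and -0.08. The part of these genes in the MSLN result was not tested.

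Of 15 measured genes that pattern the Müllerian duct, besides the 10 lineage genes, 2 fell in OVCAR-8R and 13 did not pass, with a median difference of 0.06. The 2 of 15 called are close to the 16.7% called among all genes. MEIS1, a TALE homeobox partner of HOX proteins, fell by 2.20 (standard error 0.11, adjusted p = 1.35e-07 from limma) to signals from 6.04 to 6.21 on OVCAR-8R arrays, against 8.14 to 8.62 on OVCAR-8 arrays. DACH1, a transcriptional cofactor, fell by 2.15 (0.12, adjusted p = 4.23e-07). SOX17, which acts with PAX8 in tubal secretory cells, had a difference of 0.07 (0.11), and PAX2, the close relative of PAX8, one of 0.10 (0.07). LHX1, a factor of the duct's early epithelium, had a difference of 0.21, the oestrogen receptor gene ESR1 one of 0.06 and the progesterone receptor gene PGR one of 0.20. PAX8 was thus called higher, MEIS1 and DACH1 were called lower, and SOX17, PAX2, LHX1, ESR1 and PGR were not called. A further 8 genes of the list, HOXA9, HOXA10, HOXA11 and HOXA13 among them, had no probeset paired with 1 gene.

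Among the other PAX genes and EMX1, 2 of 9 measured fell in OVCAR-8R, against 8.37% of all genes, and 7 did not pass. In either direction 2 of 9 were called, against 16.7% of all genes. PAX3, known for neural crest and muscle, fell by 2.12 (standard error 0.14, adjusted p = 1.19e-06 from limma), with signals from 5.19 to 5.69 on OVCAR-8R arrays and from 7.33 to 7.77 on OVCAR-8 arrays. PAX6, the factor of eye and brain, fell by 2.07 (0.07, adjusted p = 1.53e-08), to 6.38 ± 0.09 in OVCAR-8R, against 8.45 ± 0.06 in OVCAR-8 (SD, n = 4 each). In the PRDM family, to which MECOM belongs, and its CtBP corepressors, 0 of 15 measured genes passed in limma and 0 in the methods' t-test. Limma called 16.7% of all genes. An unadjusted p under 0.05 was found for 9 of the 15. Over all genes, 57.6% had an adjusted p under 0.05, and the unadjusted share, which is at least as large, was not counted.

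Of 15 measured further markers of serous carcinoma and tubal secretory cells, 3 rose in OVCAR-8R, against 8.37% of all genes, and 12 did not pass. The 3 of 15 called in either direction are close to the 16.7% called among all genes. Their median difference was -0.03, and 4 more were in the lowest quartile in both lines. L1CAM, an adhesion protein of neurons and carcinomas, rose by 3.30 (standard error 0.12, adjusted p = 1.49e-08 from limma) to 9.33 ± 0.13 in OVCAR-8R, against 6.03 ± 0.21 in OVCAR-8 (SD, n = 4 each). SLPI, a secreted protease inhibitor, rose by 3.12 (0.16), and the transmembrane mucin gene MUC1 by 1.65 (0.21, adjusted p = 8.88e-05), a call lost with treat (adjusted p = 0.0725). OVGP1, which encodes the oviductal glycoprotein, had a difference of -0.63 (adjusted p = 2.99e-04) without overlap of the lines, and the protease gene KLK7 one of -0.30 (adjusted p = 0.0456), both under 2-fold. The drug target genes SLC34A2 and VTCN1 had differences of -0.10 and -0.15, and CDH6, CLDN6, PROM1 and CRISP3 were those in the lowest quartile. Of 7 measured transmembrane mucins MUC1 alone was called, and MUC4 had a difference of -0.06. Of 11 measured genes of the WAP domain family of WFDC2, SLPI and the elafin gene PI3 were higher and 9 did not pass, with PI3 at 2.80 (0.12, adjusted p = 6.84e-08). The 1 of 7 mucins and 2 of 11 WAP genes called are likewise close to 16.7%.

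**Figure D3:**
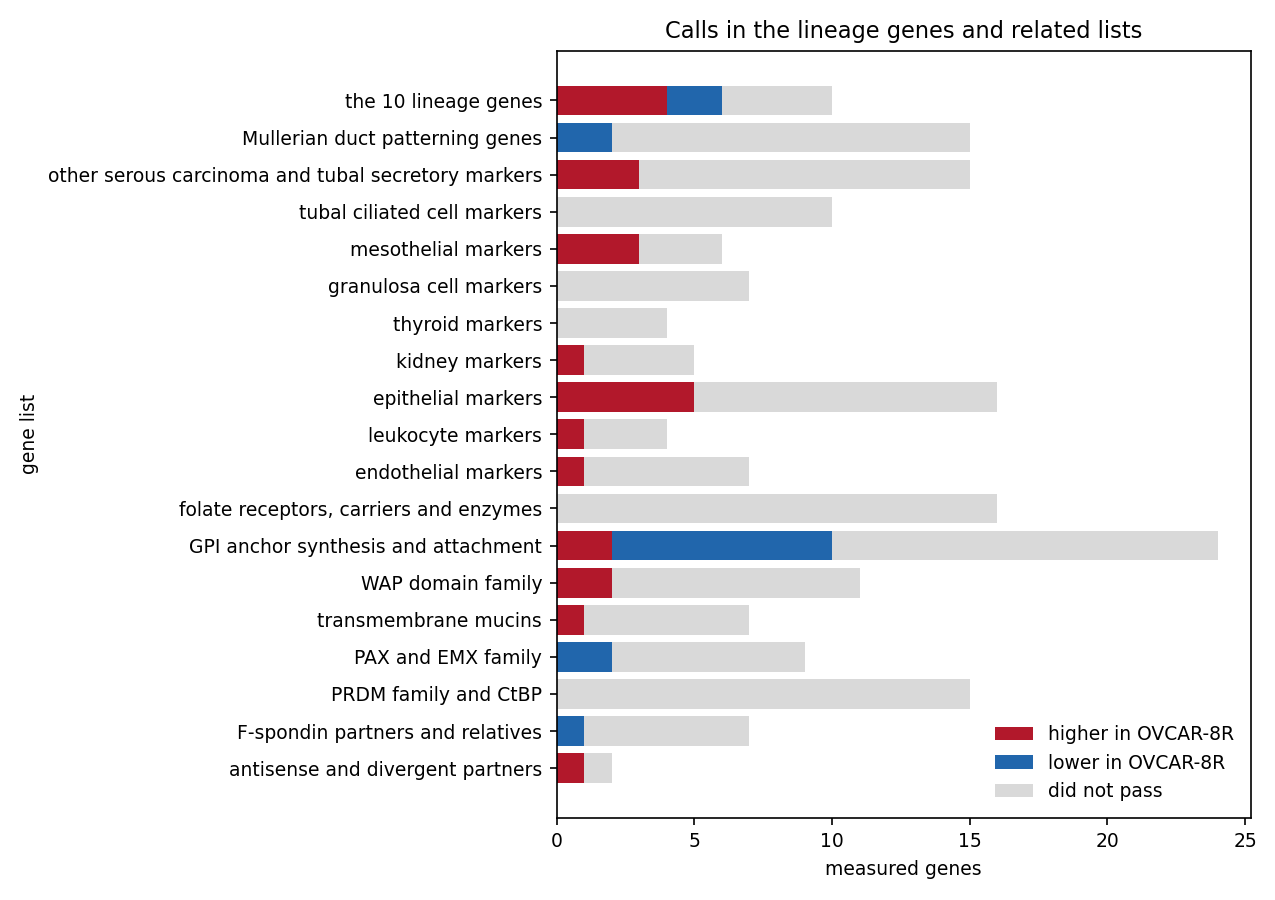
Measured genes (horizontal axis) that were higher (red), lower (blue) or did not pass (grey) in OVCAR-8R against OVCAR-8 spheroids, for the 10 lineage genes and each related list. The lineage genes hold 4 higher and 2 lower genes, and the GPI anchor list 2 higher and 8 lower of 24. Over all genes, 8.37% were called in each direction.

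MSLN, FOLR1 and CD24, which all rose, reach the cell surface on a GPI anchor, a glycolipid built in the endoplasmic reticulum and joined to the end of the protein. Of 24 measured genes of the anchor, 8 fell in OVCAR-8R, 2 rose and 14 did not pass, against 8.37% of all genes in each direction. Besides synthesis and attachment, the list holds PGAP1, PGAP2 and PGAP3, which act on the anchor after attachment. PGAP1, at -1.58, is among the 8. Their median difference was -0.52 on the log2 scale. PIGN, which adds an ethanolamine phosphate to the anchor, fell by 2.34 (standard error 0.11, adjusted p = 9.07e-08 from limma), to signals from 6.35 to 6.77 on OVCAR-8R arrays, against 8.83 to 9.03 on OVCAR-8 arrays. PIGF, a partner of the ethanolamine phosphate transferases, fell by 1.94 (0.11), and PIGA, the catalytic subunit of the first step, fell by 1.79 (0.13, adjusted p = 2.36e-06). PIGQ, a further subunit of the PIGA complex, rose by 1.46 (0.10, adjusted p = 1.59e-06) and the mannosyltransferase gene PIGV by 1.12 (0.09). Thus 8 of the 10 called genes of the anchor fell, while the RNA of MSLN, FOLR1 and CD24 rose. The list was chosen with earlier results of these data known, and a link between these directions was not tested. With treat PIGV, PIGK and PIGS were no longer called, which left 7 of the 10 called, PIGQ as higher and the others as lower. PIGS, at -1.01, was also lost after cyclic loess scaling (-0.94), without OVCAR-8R array 1 (-0.98) or 3 (-0.96) and without OVCAR-8 array 3 (-0.91).

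Around FOLR1, none of 16 measured genes of folate receptors, carriers and enzymes was called by limma or the methods' t-test, against 16.7% of all genes in limma. An unadjusted p under 0.05 was found for 13 of the 16. Over all genes, 57.6% had an adjusted p under 0.05, and the unadjusted share, which is at least as large, was not counted. FOLR3, a secreted folate receptor next to FOLR1, had a difference of 0.81 (standard error 0.14, adjusted p = 7.91e-04 from limma), and FOLR2, of macrophages and placenta, one of 0.10 (0.11). The carrier genes SLC19A1 and SLC46A1 had differences of -0.23 and 0.01. TYMS, the thymidylate synthase gene, had one of 0.92 (0.08) and was called higher after cyclic loess, at 1.04. Among 7 partners and relatives of F-spondin, APLP2, of the amyloid precursor family, fell by 1.08 (0.08, adjusted p = 3.12e-06), no longer called with treat or after cyclic loess (-0.95). APP and the receptor gene LRP8, both known to bind F-spondin, had differences of 0.64 and 0.63, under 2-fold.

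The nearest 2 measured genes on each side of every lineage gene, 40 in all, were examined to see whether neighbours on the chromosome moved too. Of these, 3 were higher, 4 were lower and 33 did not pass, with a median difference of -0.01. The 7 of 40 called are close to the 16.7% called among all genes. Beside PAX8 the neighbour that rose was PAX8-AS1, and PSD4 on its other side had a difference of 0.45 (standard error 0.12, adjusted p = 0.00943 from limma). Both measured genes on the lower-coordinate side of MECOM, on chromosome 3, fell. GOLIM4, which encodes a Golgi protein, fell by 4.85 (0.09, adjusted p = 3.81e-10) to signals from 4.73 to 5.04 on OVCAR-8R arrays, against 9.59 to 9.90 on OVCAR-8 arrays, and the neuroserpin gene SERPINI1 fell by 1.42 (0.14), though not with treat (adjusted p = 0.102). The OVCAR-8R means of both lie in the lowest quartile. TERC, the telomerase RNA gene on the other side of MECOM, had a difference of -0.80, and ACTRT3 one of -0.05. The gene table holds 9 other genes between MECOM and GOLIM4, none of them measured, and DNA copy number was not measured.

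Near FOLR1, INPPL1, a lipid phosphatase gene, rose by 1.06 (standard error 0.10, adjusted p = 1.26e-05 from limma), though not with treat or without OVCAR-8 array 2 (0.97). RAB11FIP2, an endosome gene beside EMX2, fell by 1.13 (0.10), and it too was not called with treat. PAX6 is the outer of the genes examined on one side of WT1, and RCN1 between them had a difference of -0.02. ZNF558, a zinc finger gene next to MUC16, rose by 2.52 (0.21, adjusted p = 4.90e-06) although MUC16 itself was not called, and its OVCAR-8 mean of 4.23 lies in the lowest quartile. Of the neighbours of CD24, MSLN, WFDC2 and SPON1, 4 for each, none passed, at differences between -0.93 (MTRES1, beside CD24) and 0.74 (PIGT, beside WFDC2). The CD24 neighbours flank the gene on chromosome 6, and whether its probeset reads that gene or a pseudogene was not examined. MTRES1 passed without OVCAR-8 array 3 (-1.05), and just reached the 2-fold threshold without OVCAR-8R array 4.

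**Figure D4:**
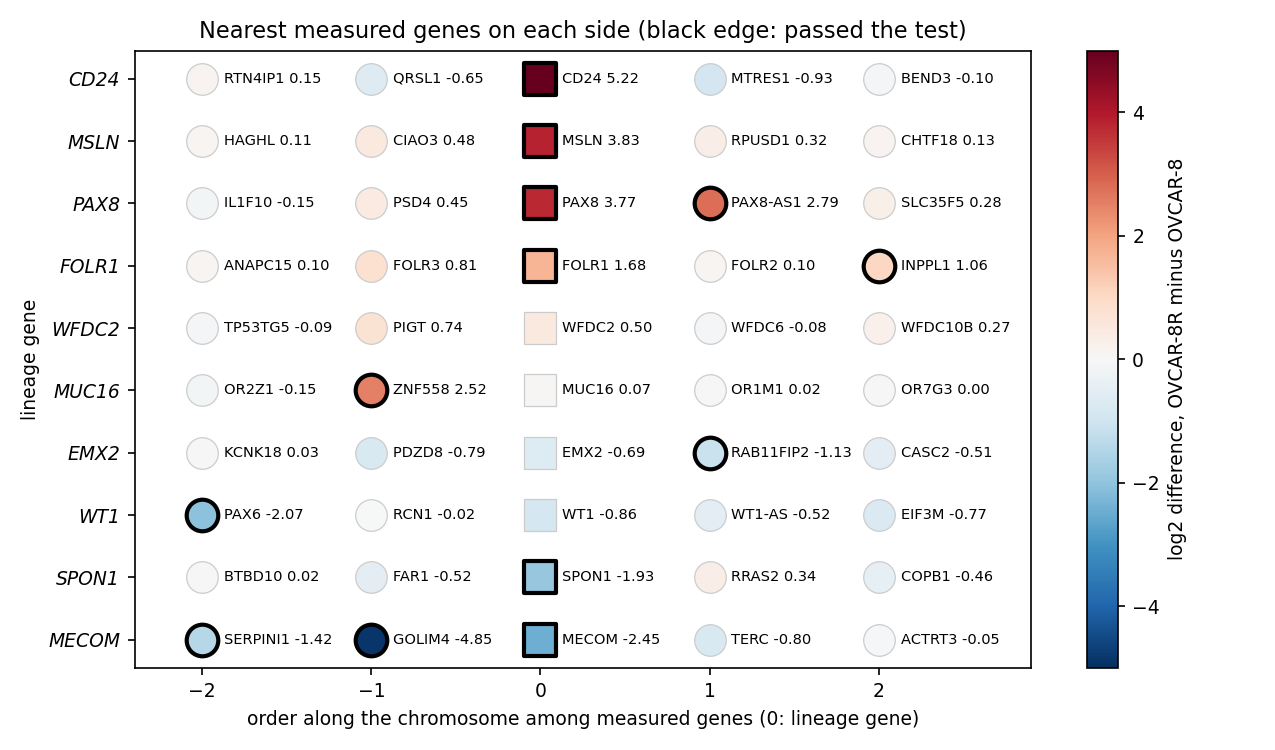
Difference in mean log2 signal of OVCAR-8R minus OVCAR-8 (colour and printed value) for each lineage gene (squares) and its nearest 2 measured genes on each side (circles), in chromosomal order along the horizontal axis, with lineage genes ordered by their difference. A black edge marks genes that passed the test, 7 of the 40 neighbours among them, such as PAX8-AS1 at 2.79 and GOLIM4 at -4.85.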

How the data were processed

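The 8 arrays held RNA of OVCAR-8R and OVCAR-8 spheroids. With Affymetrix Expression Console, the authors ran RMA (background correction, quantile normalization across arrays, probe summary) and deposited 1 linear intensity per probeset and array for 33297 probesets. Quantile normalization removes any overall difference in signal. Log2 of each deposited intensity was taken here. GEO's platform annotation names 1 gene for 19460 probesets, of which 19429 were found in a RefSeq gene table of GRCh38.p14, several genes for 1754, and leaves 12083 unnamed here. A gene with several probesets was represented by that with the highest mean.

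As in the methods, probesets in the lowest 25% of mean signal in both lines (under 5.11 and 5.16) were left out, and 25628 remained. Differences were fitted with limma (version 3.58.1, R version 4.3.3) without a replicate block, with Benjamini-Hochberg adjustment over them. The fit was tested on simulated data. The lineage genes and all lists were chosen with earlier results of these data known. Named are the 10 genes, up to 3 called genes of each of 18 further lists in each direction, and called neighbours. Other list genes named, KRT18, SPINT2, PIGK and PIGS among them, were chosen after their values were seen. Control probesets could not be told apart and stayed in. No read depth exists for arrays, and the number of arrays limits the precision. Tried as alternatives were other filters, thresholds, tests, scalings and array weights, probeset means, a replicate block and leaving out arrays. The methods' t-test is Student's, here with Benjamini-Hochberg adjustment. Promoters are RefSeq sequences of GRCh38.p14.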

Additional observations from a re-analysis of the deposited data

Results flagged for a closer look

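In 5 of 78 sets of 4 arrays examined, 1 array stood apart from the other arrays of its line, judged by the gap to its nearest neighbour as a share of the range. Chance alone flags about 1 set in 20. Of the lineage genes, MECOM was at 6.81 on OVCAR-8 array 1, against 7.20 to 7.27 on the other OVCAR-8 arrays, and WFDC2 was at 6.16 on OVCAR-8 array 4, against 6.52 to 6.57. PI3, of the same family as WFDC2, was also low on OVCAR-8 array 4, at 6.43 against 6.83 to 6.90. The anchor gene PIGA was at 9.27 on OVCAR-8 array 3, against 9.43 to 9.46 on the others. DACH1 was at 5.68 on OVCAR-8R array 2, against 5.50 to 5.53 on the other OVCAR-8R arrays. These gaps are small beside the differences between the lines, apart from that of WFDC2, whose lines differ by 0.50.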

How the results depend on the processing

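Under 21 alternatives no lineage gene that passed the test lost its call or its direction, and the counts were 4 higher and 2 lower in every setting but one. Without the 2-fold threshold, 4 genes were lower (MECOM, SPON1, WT1 and EMX2) and 5 were higher, with WFDC2 added. With a replicate block the counts were also 4 and 2. Same-numbered arrays of the lines correlated in their deviations at r of 0.165, -0.323, -0.052 and 0.443 for numbers 1 to 4. OVCAR-8R array 4 correlated best with OVCAR-8 array 4, but array 1 did so with OVCAR-8 array 2 (r = 0.353), and the numbers were not taken to pair the arrays. Over all genes, treat, which tests for more than a 2-fold difference, called 832 higher and 643 lower, against 1334 and 1334, and any size of difference called 4396 and 4776. Over all alternatives CD24 lay between 5.15 and 5.28, MSLN between 3.75 and 3.99, PAX8 between 3.69 and 3.84, FOLR1 between 1.62 and 1.77, SPON1 between -1.99 and -1.88, WT1 between -0.93 and -0.75, and WFDC2 between 0.41 and 0.55. EMX2 lay between -0.77 and -0.61 and MUC16 between 0.01 and 0.12. MECOM lay between -2.55 and -1.43, with -1.43 as the mean of its probesets and an adjusted p of 1.82e-08 there from limma. EMX2 and MUC16 were left out by the stricter filter on signal, which gave them no value. Searching the given strand only left 1 lineage promoter with the WT1 and EGR site (5.35% of all promoters). Array signals near background limit the size of the CD24, MECOM and PAX8-AS1 differences. The OVCAR-8 means of FOLR1 (5.58), MSLN (6.46) and PAX8 (6.51) lie above the lowest quartile. Whether background also limits their differences was not tested.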

Other observations

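PAX8 is also a thyroid factor, and 0 of 4 measured thyroid genes passed in limma or the methods' t-test, with 1 at an unadjusted p under 0.05. Of 7 measured granulosa cell genes 0 passed in either test, with 3 at an unadjusted p under 0.05. Of 10 measured genes of tubal ciliated cells 0 passed in either, with 1 at an unadjusted p under 0.05. Over all genes, 16.7% passed in limma and 57.6% had an adjusted p under 0.05. The unadjusted share of all genes, which is at least as large, was not counted. Of 5 measured kidney genes 1 was higher, PODXL, which encodes podocalyxin of podocytes and some carcinomas and rose by 2.92 (standard error 0.07, adjusted p = 9.02e-10 from limma), with signals from 10.71 to 10.73 on OVCAR-8R arrays and from 7.70 to 7.88 on OVCAR-8 arrays.

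Markers of cells that a culture of carcinoma cells should lack were measured too. Of 4 measured leukocyte genes 1 was higher in OVCAR-8R spheroids, CD68, a lysosomal protein also made outside macrophages, which rose by 2.52 (standard error 0.08). PTPRC, CD3E and MS4A1, which define leukocytes, T cells and B cells, lay in the lowest quartile in both. NKG7, CD14 and CSF1R were above it and not called, with means of 6.85, 5.72 and 5.69 in OVCAR-8R and 6.91, 5.49 and 5.60 in OVCAR-8. The mean log2 signal over 7 leukocyte genes lay between 5.95 and 6.27 on OVCAR-8R arrays and between 5.68 and 5.82 on OVCAR-8 arrays. CD68 is among these 7, and the next largest rise among them was 0.23, of CD14. Of 7 measured endothelial genes TIE1 rose by 1.24 (0.15), which was not called with treat (adjusted p = 0.671), and PECAM1, CDH5 and KDR had differences of 0.16, 0.14 and 0.12. The calls were thus 1 of 4 leukocyte and 1 of 7 endothelial genes, against 16.7% of all genes.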
